A study of Mus musculus with 18 samples.

Results

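The platelet and megakaryocyte genes were a set of 30 named genes that encode the surface receptors, granule proteins, signalling proteins and lineage transcription factors of platelets and of the marrow cells that make them. A probe belonged to the set when the gene name on the array, current or older, was that of a listed gene. This held for 29 of the 30 genes, with 47 of the 41174 probes of the array, and 29 of the 13275 genes tested. The signal of Tubb1, the platelet beta-tubulin, was not analysed here, and only its promoter was searched. Pf4 and Ppbp stood on the array under the older names Cxcl4 and Cxcl7. The list did not rest on measured values.

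Whole-blood RNA of 18 male C57BL/6N mice, aged 8 to 12 weeks, was hybridised to 1-colour Agilent arrays, with 1 array per mouse. The mice were sham treated (0 Gy, 7 mice) or given gamma rays from a cesium source at 2 Gy (5 mice) or 8 Gy (6 mice), and blood was drawn from the heart 6 hours later. All RNA was depleted of globin transcripts. It had been purified with a RiboPure kit in 15 mice and with a PAXgene kit in 3, of which 2 were at 0 Gy and 1 at 2 Gy, so that no mouse at 8 Gy had the PAXgene kit. Values are log2 processed signals relative to the 75th percentile of the array, and all errors of fold changes are standard errors of the limma model with dose and kit as terms.

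Platelets are small cells without a nucleus that circulate in large numbers and close wounds in vessels. Megakaryocytes of the marrow release them, and platelets carry over the transcripts that the megakaryocyte made. Their receptors bind exposed matrix and von Willebrand factor, their granules release chemokines and adhesive proteins, and an integrin then binds fibrinogen and links the platelets to each other. Whole blood holds platelets beside red and white cells, and in such bulk RNA more cells of a type and more RNA per cell cannot be told apart.

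The array measures Itga2b, the alpha chain of the fibrinogen receptor, with a 60-base probe that the files place on the minus strand of mm7 at chr11:102567178-102567386. These coordinates span 209 genomic bases. The probe is shown because it is the molecule behind every Itga2b value below.
Itga2b probe: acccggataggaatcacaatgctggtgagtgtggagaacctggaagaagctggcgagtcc

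Because most of the genes moved together from array to array, their promoters were searched for letters bound by the GATA factors (GATAA) and ETS factors (CAGGAA) of megakaryocytes, on both strands and in the 250 bases before and 50 bases after the start in RefSeq (GRCm38.p6). Promoters were matched for 23 of the 30 genes, with Tubb1, whose signal was not analysed, among them. GATAA was found in 10 of these (43.5%), against 25.4% of all 32851 promoters of the same length, and CAGGAA in 6 (26.1%), against 30.6%. A match is only a run of letters and does not show that a factor binds there. The 200 bases before the start are printed for 6 genes whose values are given in full, with a match in capitals.
Pf4, chr5:90772235-90772434 (plus strand): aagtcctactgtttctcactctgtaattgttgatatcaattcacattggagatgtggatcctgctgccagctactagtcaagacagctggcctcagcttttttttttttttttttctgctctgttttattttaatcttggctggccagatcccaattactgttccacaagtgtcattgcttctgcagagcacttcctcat
Ppbp, chr5:90768318-90768517 (plus strand): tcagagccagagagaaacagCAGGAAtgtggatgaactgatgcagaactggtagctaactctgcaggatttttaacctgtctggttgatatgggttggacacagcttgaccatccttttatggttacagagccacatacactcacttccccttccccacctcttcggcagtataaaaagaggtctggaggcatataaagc
Gp9, chr6:87777870-87778069 (plus strand): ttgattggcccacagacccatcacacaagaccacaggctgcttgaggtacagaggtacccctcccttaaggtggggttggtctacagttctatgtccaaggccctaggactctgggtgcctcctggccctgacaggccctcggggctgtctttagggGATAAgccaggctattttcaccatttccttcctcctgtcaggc
Gfi1b, chr2:28621983-28622182 (minus strand): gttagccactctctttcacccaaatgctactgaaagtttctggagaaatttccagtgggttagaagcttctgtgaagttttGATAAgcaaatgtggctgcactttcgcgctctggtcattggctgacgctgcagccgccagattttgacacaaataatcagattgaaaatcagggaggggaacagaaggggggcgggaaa
Itga2b, chr11:102469884-102470083 (minus strand): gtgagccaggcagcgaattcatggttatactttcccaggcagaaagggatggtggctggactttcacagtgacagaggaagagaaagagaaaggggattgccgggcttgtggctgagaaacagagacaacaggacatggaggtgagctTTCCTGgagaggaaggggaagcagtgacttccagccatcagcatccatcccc
Cd9, chr6:125494761-125494960 (minus strand): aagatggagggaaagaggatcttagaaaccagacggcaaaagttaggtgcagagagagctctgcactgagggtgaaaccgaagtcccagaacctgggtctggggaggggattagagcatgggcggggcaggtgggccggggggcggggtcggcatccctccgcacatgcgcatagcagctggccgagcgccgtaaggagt
In the printed stretch, Gp9 and Gfi1b held GATAA, and Ppbp held CAGGAA. Itga2b held the reverse complement of CAGGAA. The stretches of Pf4 and Cd9 held neither, and the GATAA of the Pf4 window lay in the bases after the start.

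The label of whole blood was borne out for platelets by their defining markers: all 10 defining markers with a probe were well above background on all 18 arrays. Of the 29 genes, 28 were well above background on every array. The exception was F2rl3, a thrombin receptor, which was above background on 6 of the 18 arrays. Some arrays stood apart from their dose group across most of the genes: 0 Gy replicate 5 was the highest sham array for 23 of the 29 genes, 0 Gy replicate 4 the lowest for 24, and 2 Gy replicate 3 the lowest of its group for 26. The main results are given with and without them. Over the genes tested, 0 Gy replicate 4 and 2 Gy replicate 3 had median correlations with the other arrays of 0.83 and 0.84. Every other array had 0.91 or more, with 0.95 for 0 Gy replicate 5. The low values of 0 Gy replicate 4 and 2 Gy replicate 3 thus came from arrays that stood apart beyond the 29 genes. One library also went against its label in genes outside the list. As mean log2 deviation from the sham mean, the B cell markers stood at -1.88 on the array labelled 0 Gy replicate 5, between -0.16 and 0.83 on the other 6 sham arrays and between -4.19 and -0.95 on the irradiated arrays. The neutrophil markers stood at 1.93 on it, between -0.65 and 0.23 on the other sham arrays and between 0.43 and 3.41 on the irradiated arrays. On both lists it thus lay within the range of the irradiated arrays. The array labelled 2 Gy replicate 3 had -2.50 for the B cell markers, within the range of the other 2 Gy arrays, and 0.43 for the neutrophil markers, the lowest of the irradiated arrays. Labels were kept as given, the reason for these values was not tested, and every count that includes these arrays depends on their labels.

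**Figure D1:**
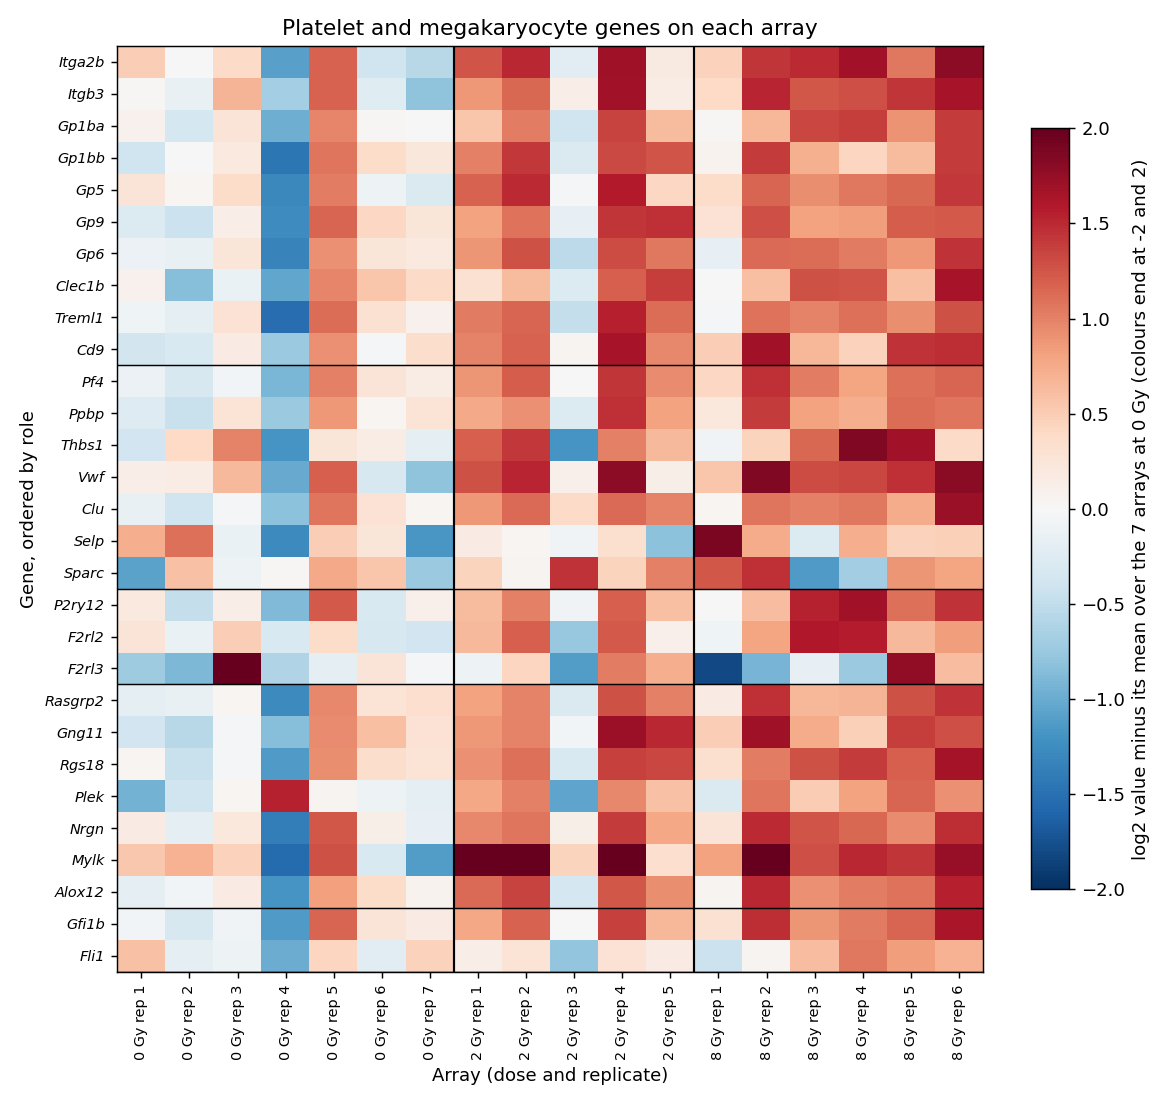
Heat map of the 29 genes (rows, by role) on the 18 arrays (columns, by dose). Colour gives the log2 value minus the gene's mean over the 7 arrays at 0 Gy. Most rows are red on the same arrays, among them 0 Gy replicate 5, and pale or blue on 0 Gy replicate 4, 2 Gy replicate 3 and, at 8 Gy, replicate 1.

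The question of the comparison between 8 Gy and 0 Gy is which blood transcripts differ after a high dose. The platelet and megakaryocyte genes were on balance higher at 8 Gy, by a median of 1.03 on the log2 scale, or 2.04-fold, and 28 of the 29 estimates were above 0. This is relative to the 75th percentile of each array, and without scaling the median of the 29 was 0.00. Over all genes tested the scaled median was 0.08. At an adjusted p under 0.05, 9 of the 29 rose and 0 fell, where 7.63% of all genes tested rose and 4.31% fell. The 9 were Rgs18, Gng11, Pf4, Cd9, Gfi1b, Clu, Itgb3, Vwf and Gp9. None of these calls held with the slide in the model. They also depended on single arrays: leaving out 1 array at a time gave 0 to 22 called genes, with 0 for 9 of the 18 arrays, 0 Gy replicate 4 among them, and 22, with all 9 kept, for 0 Gy replicate 5. The count over all genes tested moved as well. It was 164 to 394 rising genes in the 9 fits with 0 called, and 2056 without 0 Gy replicate 5.

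Among the 10 adhesion receptors and their partners, 3 passed the test (Cd9, Itgb3 and Gp9), and the median log2 fold change of the 10 was 1.02. For this and the other roles below, the values over all genes tested were 7.63% rising and a median of 0.08. No role was tested as a group. Itga2b and Itgb3 encode the alpha and beta chains of the fibrinogen receptor. Itga2b lay between 4.97 and 7.24 in the sham mice, with a median of 6.07, and between 6.52 and 7.85 at 8 Gy, with a median of 7.52. At 2 Gy its 5 values were 7.33, 7.56, 5.83, 7.76 and 6.24. The lowest arrays at 8 Gy and 2 Gy lay within the range of 0 Gy, whose highest array was replicate 5. Its log2 fold change at 8 Gy was 1.10 ± 0.38, with an adjusted p of 0.061, which missed the threshold. Itgb3 lay between 6.73 and 8.71 in the sham mice (median 7.37) and between 7.93 and 9.18 at 8 Gy (median 8.89). At 2 Gy the values were 8.40, 8.68, 7.66, 9.20 and 7.67. The groups overlapped, although 5 of the 6 arrays at 8 Gy lay above every 0 Gy array. Itgb3 rose at 8 Gy by 1.04 ± 0.32 (adjusted p = 0.0466). A dimmer Itgb3 probe gave 0.54, so the size for this gene depended on the probe.

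Gp1ba, Gp1bb, Gp5 and Gp9 encode the subunits of the platelet receptor for von Willebrand factor. Gp9 lay between 6.54 and 8.96 in the sham mice (median 7.93) and between 8.08 and 9.08 at 8 Gy (median 8.81). The 2 Gy mice stood at 8.60, 8.87, 7.63, 9.23 and 9.25. The highest sham array, replicate 5, lay among the irradiated arrays, and 2 Gy replicate 3 lay among the sham arrays. Gp9 rose by 1.09 ± 0.35 at 8 Gy, with an adjusted p of 0.0498, just inside the threshold. Gp1ba (0.95 ± 0.35), Gp1bb (0.89 ± 0.39) and Gp5 (0.89 ± 0.35) had smaller estimates that did not pass, with adjusted p of 0.0744, 0.122 and 0.0886.

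Cd9, a tetraspanin of the platelet membrane, lay between 7.67 and 9.34 in the sham mice (median 8.38) and between 8.87 and 10.10 at 8 Gy (median 9.47). In the 2 Gy mice it was 9.40, 9.59, 8.47, 10.06 and 9.38. Without 0 Gy replicate 5, every 8 Gy array was above every sham array. The rise at 8 Gy was 1.08 ± 0.33 (adjusted p = 0.0444). A second Cd9 probe, well above background on 6 of the 18 arrays, had 1.09 at 8 Gy but -0.56 at 2 Gy, where the brighter one had 0.98. The receptor for collagen, Gp6, and the receptor for podoplanin, Clec1b, had estimates of 0.99 ± 0.38 and 1.12 ± 0.36. Their adjusted p values were 0.0839 and 0.0502, the second just outside the threshold. Treml1, a receptor stored in granules and exposed on activated platelets, had 0.97 ± 0.40 (adjusted p = 0.104).

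**Figure D2:**
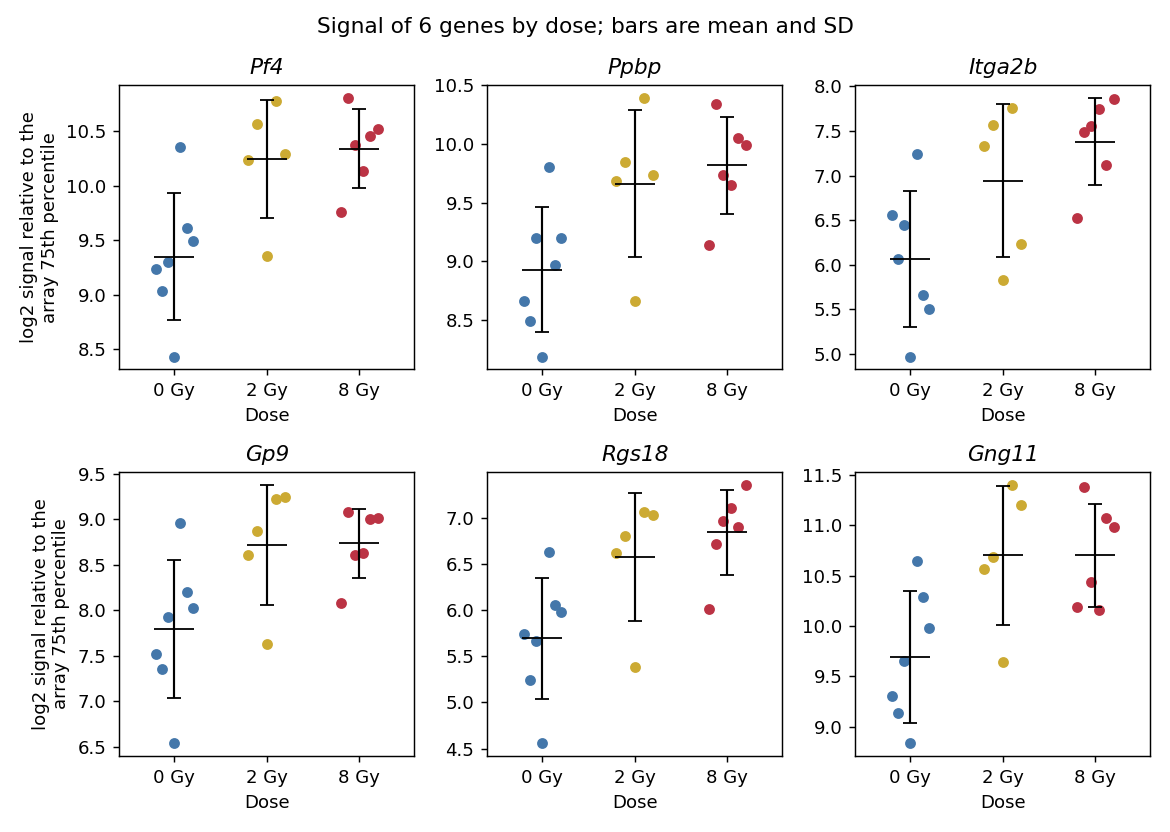
Log2 signal relative to the array's 75th percentile for Pf4, Ppbp, Itga2b, Gp9, Rgs18 and Gng11 at 0, 2 and 8 Gy. Points are mice, and the bars give mean and SD (n = 7, 5 and 6). In each panel the group means are higher at 2 and 8 Gy, and the highest sham mouse lies within the range of the irradiated mice.

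Of the 7 granule proteins, 3 rose at 8 Gy (Pf4, Vwf and Clu), and the median of the 7 was 0.94. Pf4 and Ppbp are the chemokines that platelets store in their alpha granules. Pf4 lay between 8.43 and 10.36 in the sham mice (median 9.30) and between 9.76 and 10.81 at 8 Gy (median 10.41). After 2 Gy it measured 10.24, 10.56, 9.35, 10.78 and 10.29. All 8 Gy arrays lay above the other 6 sham arrays once replicate 5 was set aside. Pf4 rose by 1.05 ± 0.30, a 2.07-fold difference (adjusted p = 0.0393). Ppbp lay between 8.19 and 9.80 in the sham mice (median 8.97) and between 9.14 and 10.34 at 8 Gy (median 9.86). The 5 mice at 2 Gy had 9.68, 9.84, 8.66, 10.39 and 9.74. Its groups overlapped, and its estimate of 0.94 ± 0.31 missed the threshold with an adjusted p of 0.0558.

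Vwf, which encodes von Willebrand factor and is also made by endothelium, lay between 5.76 and 7.95 in the sham mice (median 6.89) and between 7.31 and 8.60 at 8 Gy (median 8.16). At 2 Gy the values were 8.03, 8.28, 6.86, 8.55 and 6.88. The groups overlapped in both comparisons, and the rise at 8 Gy was 1.13 ± 0.35 (adjusted p = 0.0475). Of the 8 endothelial markers tested, 0 passed in either direction, with a median of 0.07, and Cdh5, Tek, Tie1 and Sox17 did not reach the detection filter. With the slide in the model the endothelial median was 0.88, with 0 of 8 passing. At 2 Gy all 8 were above 0, with a median of 0.98 and 0 passing. The arrays were uneven in these markers, given here as mean deviation from the sham mean. 2 Gy replicate 3 stood at 3.03, and the other 2 Gy arrays between -0.12 and 0.74. 0 Gy replicate 4 stood at 1.94, and the other sham arrays between -0.86 and 0.68. Both were the lowest arrays of their groups for most of the 29 genes, and the reason was not tested. Clu, a secreted chaperone of the granules, lay between 5.85 and 7.74 in the sham mice (median 6.64) and between 6.71 and 8.39 at 8 Gy (median 7.70). The 2 Gy mice stood at 7.53, 7.81, 7.05, 7.80 and 7.66. Without 0 Gy replicate 5, Clu was the only one of the 29 genes whose 2 Gy arrays all lay above all sham arrays. The rise at 8 Gy was 0.99 ± 0.30 (adjusted p = 0.0452).

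The other granule genes had smaller or less even estimates. Thbs1, the matrix protein thrombospondin, had 0.90 ± 0.47 (adjusted p = 0.186). Selp, the adhesion molecule P-selectin, had 0.46 ± 0.40 (adjusted p = 0.438), and its highest array at 8 Gy was replicate 1, which was the lowest array for most other genes. Sparc, a matrix glycoprotein also made by fibroblasts, had 0.44 ± 0.46 (adjusted p = 0.529), and its probes gave opposite signs, -0.47 and 0.44, the first from a probe above background on 10 of the 18 arrays.

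None of the 3 agonist receptors passed. P2ry12, the ADP receptor that is the target of clopidogrel, had 1.03 ± 0.36 (adjusted p = 0.0644). F2rl2, a thrombin receptor, had 0.75 ± 0.34 (adjusted p = 0.134). F2rl3, the thrombin receptor at the edge of detection, had -0.11 ± 0.60 (adjusted p = 0.923), and it was above background on 3 of 7 arrays at 0 Gy, 1 of 5 at 2 Gy and 2 of 6 at 8 Gy.

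Of the 7 signalling proteins and enzymes, Rgs18 and Gng11 rose, and the median of the 7 was 1.09. Rgs18, which shortens G protein signals in platelets, lay between 4.56 and 6.62 in the sham mice (median 5.74) and between 6.01 and 7.36 at 8 Gy (median 6.93). In the 2 Gy mice it was 6.61, 6.80, 5.38, 7.06 and 7.03. Among the 8 Gy arrays, replicate 1 was the one that lay within the sham range. Rgs18 rose by 1.28 ± 0.34, or 2.44-fold (adjusted p = 0.0304), which was the largest estimate of the 29. Gng11, a G protein gamma subunit, lay between 8.84 and 10.64 in the sham mice (median 9.65) and between 10.16 and 11.38 at 8 Gy (median 10.71). After 2 Gy it measured 10.56, 10.69, 9.64, 11.40 and 11.20. The groups overlapped, and the rise at 8 Gy was 1.19 ± 0.33 (adjusted p = 0.0377).

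The other 5 of this group missed the threshold. Mylk, the myosin light chain kinase, had 1.18 ± 0.43 (adjusted p = 0.0747). Alox12, the platelet lipoxygenase, had 1.09 ± 0.36, and Nrgn, a calmodulin-binding protein, had 1.08 ± 0.35, with adjusted p of 0.0541 and 0.0547. Rasgrp2, the exchange factor that switches on the integrin, had 1.06 ± 0.35 (adjusted p = 0.0547). Plek, a kinase substrate shared by platelets and leukocytes, had 0.67 ± 0.42 (adjusted p = 0.265), and its highest sham array was replicate 4, the lowest array for 24 of the 29 genes. A dimmer Plek probe, well above background on all 18 arrays, gave 1.04 ± 0.33. It also missed the threshold in limma's fit of single probes (adjusted p over probes = 0.0542).

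Gfi1b and Fli1 are transcription factors of the megakaryocyte lineage. Gfi1b lay between 0.25 and 2.55 in the sham mice (median 1.33) and between 1.69 and 3.01 at 8 Gy (median 2.49). The 5 mice at 2 Gy had 2.17, 2.56, 1.38, 2.76 and 2.06. Every 8 Gy array was above the sham median, and above every sham array once replicate 5 was set aside. It rose by 1.12 ± 0.34 (adjusted p = 0.0448), while Fli1 had 0.52 ± 0.31 (adjusted p = 0.250).

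No gene of the 29 had every 8 Gy array above every sham array, where 0.829% of all genes tested did. Without 0 Gy replicate 5 there were 6 such genes (Pf4, Gp5, Nrgn, Gfi1b, Mylk and Cd9), and 6.18% of all genes tested did. In 16 of the 29, every 8 Gy array was above the sham median, against 19.7% of all genes tested. The same held for every 2 Gy array in 6 of the 29, against 11.5%. No gene of the 29 had every 2 Gy array above every sham array (0.173% of all genes tested), and Clu alone did without 0 Gy replicate 5 (1.97%). None had every 8 Gy array above every 2 Gy array (0.0753%).

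The comparison of 2 Gy with 0 Gy asks the same of a lower dose, and it shares its 7 sham arrays with the one above. The estimates were again mostly above 0, in 28 of 29 genes, with a median of 0.82 (1.76-fold) against 0.06 over all genes tested. Markers of other cells also had medians away from 0, although 0 of each list passed. The medians at 2 Gy were 1.55 for 11 neutrophil, 0.98 for 8 endothelial, 0.61 for 13 erythroid and -2.68 for 12 B cell markers. The mean deviation of the endothelial markers was 3.03 on 2 Gy replicate 3 and between -0.12 and 0.74 on the other 2 Gy arrays. The part of these markers in the values of the 29 genes was not tested. None of the 29 passed limma's test after adjustment, where 0.0301% of all genes tested rose and 0.0226% fell. At an unadjusted p under 0.05, 19 of the 29 were higher and 0 lower, where 11.3% of all genes tested were higher. Mylk had the largest estimate (1.37 ± 0.43, adjusted p = 0.135), followed by Gng11 (1.06 ± 0.33, adjusted p = 0.134). Pf4 had 0.91 ± 0.30 (adjusted p = 0.145), and Rgs18 had 0.92 ± 0.34 (adjusted p = 0.169). Itga2b had 0.82 ± 0.38 and Gp9 0.97 ± 0.35. Selp was the 1 gene below 0, at -0.14 ± 0.40, and Fli1 stood at 0.03 ± 0.31. Without 0 Gy replicate 5, 7 genes rose (Cd9, Clu, Gng11, Gp9, Mylk, Pf4 and Rgs18), where 4.12% of all genes tested rose.

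Between 8 Gy and 2 Gy no difference was detected. None of the 29 passed limma's test (smallest adjusted p = 0.927), and 0.00% of all genes tested were called in either direction. At an unadjusted p under 0.05, 0 of the 29 were called, where 1.85% of all genes tested were higher and 1.29% lower. The median was 0.22, and the estimates ran from -0.33 for F2rl3 to 0.59 for Selp. Pf4 had 0.14 ± 0.32, Itga2b 0.29 ± 0.40 and Gp5 0.00 ± 0.37. Standard errors of this size leave room for a difference between the doses in these genes. Between the kits, with dose in the model, 0 of the 29 passed, where 1.91% of all genes tested were higher with PAXgene and 1.30% lower. Mylk had -1.15 ± 0.49 with PAXgene (adjusted p = 0.211), and Vwf had -0.88 ± 0.40 (adjusted p = 0.245). These were the 2 genes with an unadjusted p under 0.05 in limma's test, both lower, as were 7.13% of all genes tested. With quantile normalization, Itgb3 and Vwf fell with PAXgene, each by 1.16 (adjusted p = 0.0173 and 0.0340). When limma was fitted to single probes, dimmer probes of Thbs1, Itgb3 and Cd9 passed and were lower with PAXgene. They had -1.90, -1.23 and -1.81 (adjusted p over probes = 0.0169, 0.0183 and 0.0180). The brightest probes of these genes had -0.01, -0.76 and 0.14. The dimmer Cd9 probe was well above background on 6 of the 18 arrays.

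**Figure D3:**
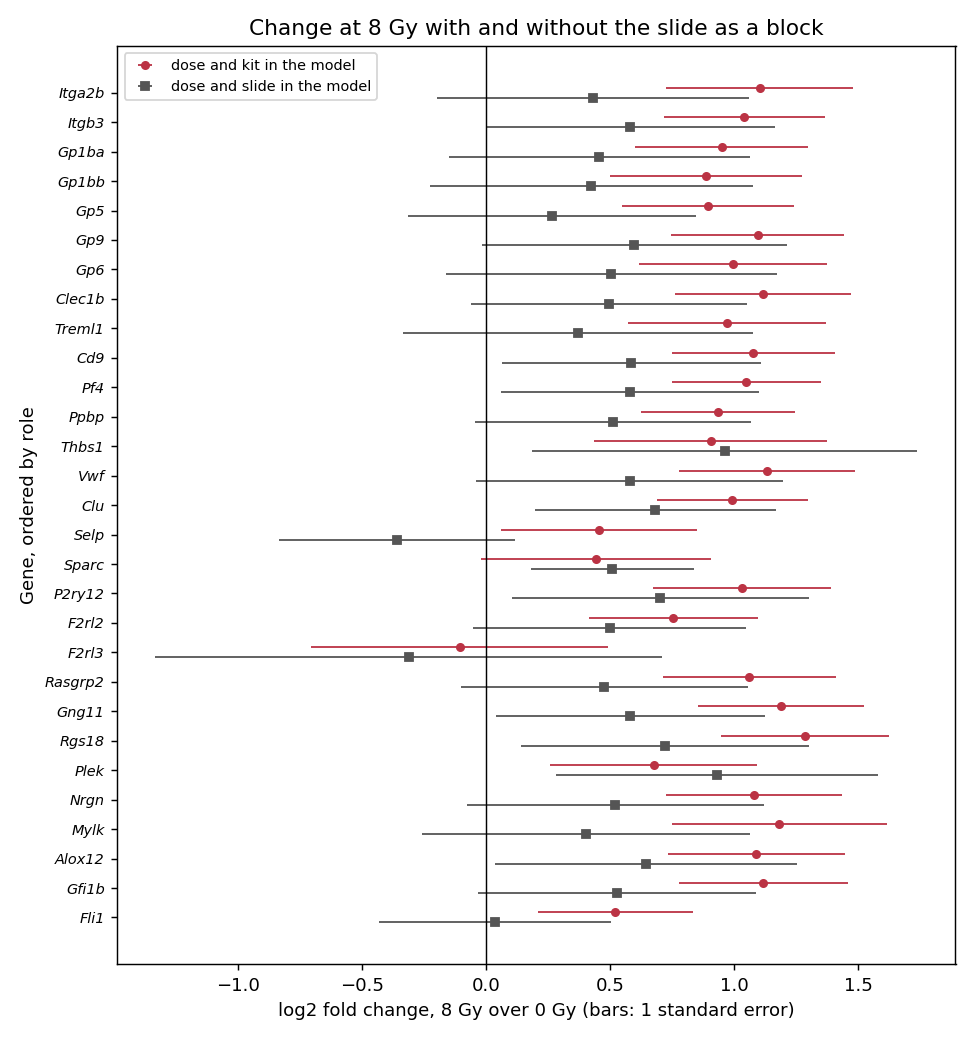
Log2 fold change of each of the 29 genes at 8 Gy over 0 Gy, with 1 standard error, from the model with dose and kit (circles) and from the model with dose and slide (squares). The squares lie to the left of the circles for most genes, and their bars are longer: the median moves from 1.03 to 0.51. Arrays on slides that held 1 dose do not enter the estimates shown as squares.

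The 18 arrays came from 8 slides, and the same changes were fitted with the slide as a block. Only 1 slide held both 8 Gy and 0 Gy arrays. With the slide as a fixed block, the rest of the 8 Gy estimate ran through 2 Gy arrays on other slides. Among these was the slide of 2 Gy replicate 3 and 0 Gy replicate 5, described below. 0 Gy replicates 3, 4 and 7 and 8 Gy replicate 6 lay on slides with 1 dose and did not enter this estimate. With dose and slide in the model, the median at 8 Gy over 0 Gy was 0.51 (1.42-fold), 27 of the 29 estimates were above 0, and 0 passed, as for all genes tested (0.00%). At an unadjusted p under 0.05, 0 of the 29 were higher, where 3.11% of all genes tested were. Rgs18 had 0.72 ± 0.58, Pf4 0.58 ± 0.52, Gp9 0.60 ± 0.61, Itga2b 0.43 ± 0.63 and Gfi1b 0.53 ± 0.56. The median standard error of the 29 was 0.58 with the slide in the model and 0.35 without it. At 2 Gy over 0 Gy the median with the slide as a block was 0.56, and 0 of the 29 passed (0.00% of all genes tested). At an unadjusted p under 0.05, 0 were higher, where 4.39% of all genes tested were, and Selp was lower (-0.94 ± 0.36), as were 9.08%. This 2 Gy estimate depended on 0 Gy replicate 5. With that array left out and the slide as a fixed block, the 2 Gy median was 1.18. In that fit 0 of the 29 passed, where 63 of 13275 genes tested rose. At an unadjusted p under 0.05, 24 of the 29 were higher and 1 lower, where 2482 and 1722 of all genes tested were. With the slide as a random block, whose correlation within slides was estimated at 0.15, the median at 8 Gy was 0.98. Again 0 of the 29 passed, where 2.38% of all genes tested rose, and 20 had an unadjusted p under 0.05, where 18.0% of all genes tested did. Rgs18 had the smallest adjusted p in that fit, 0.0587.

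Doses could be set against each other directly on 5 slides. On the slide with 8 Gy replicates 3 and 4 and 0 Gy replicate 1, 28 of the 29 genes were higher at 8 Gy, by a median of 1.09 against 0.13 over all genes tested. Pf4 differed there by 1.02 and Rgs18 by 1.29. On the slide with 2 Gy replicates 1 and 2 and 0 Gy replicate 2, 27 were higher at 2 Gy, with a median of 1.28 against 0.06 over all genes. On the slide with the PAXgene samples 2 Gy replicate 5 and 0 Gy replicate 6, 28 were higher at 2 Gy, with a median of 0.66 against 0.05. One slide ran the other way. It held the arrays labelled 2 Gy replicate 3 and 0 Gy replicate 5, and 28 of the 29 genes were lower at 2 Gy, by a median of -1.14 against -0.41 over all genes. On the slide with 8 Gy replicates 1, 2 and 5 and 2 Gy replicate 4, 27 genes were lower at 8 Gy, with a median of -0.51. On all 5 slides the brightness of the arrays differed the other way from these genes. The log2 difference in the 75th percentile signal, higher minus lower dose, was -0.98, -1.37, -0.77, 0.43 and 0.89 in the order given here, and its part in the result was not tested on single slides. These values rest on 1 to 3 arrays a side and have no test.

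**Figure D4:**
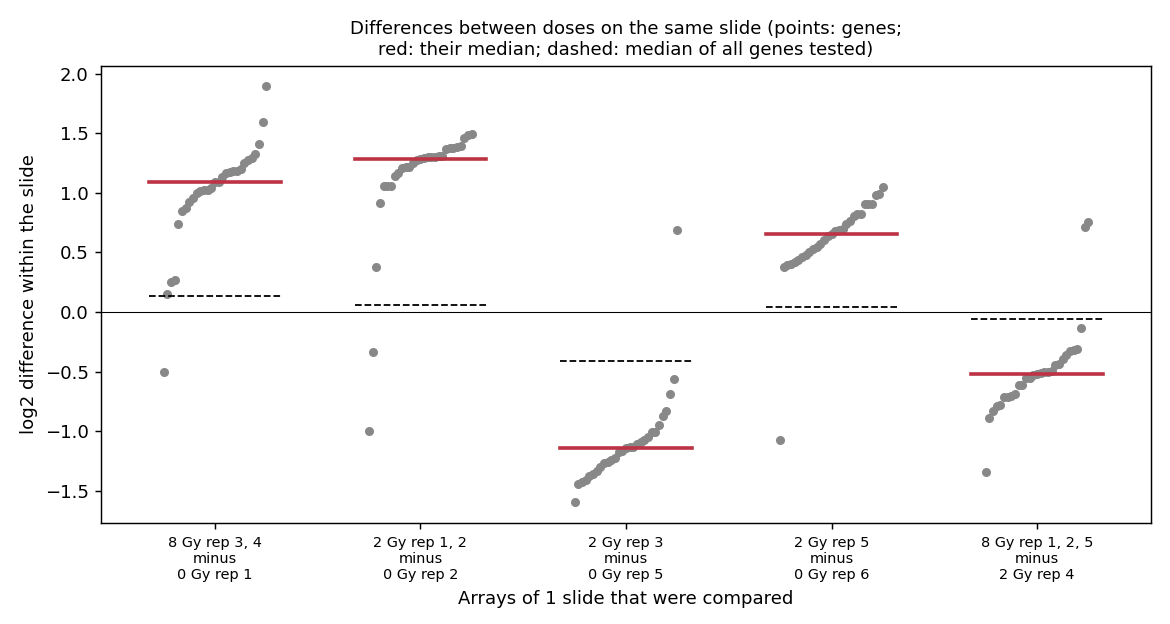
Differences between doses within each of the 5 slides that held 2 doses, in log2 units. Grey points are the 29 genes, red lines their median and dashed lines the median of all genes tested. The genes are higher at the higher dose on 3 slides, and lower on the slide of 2 Gy replicate 3 and 0 Gy replicate 5 and on the slide that sets 8 Gy against 2 Gy.

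The 29 genes varied together among mice of the same dose. With each dose's mean removed, the correlation of a gene with the median of the other 28 had a median of 0.86 over the 18 arrays, and it was above 0.8 for 18 genes. Treml1 (0.98), Gp6 (0.98) and Alox12 (0.97) followed the others most closely. Sparc (-0.11), Selp (0.08) and Plek (0.26) did not follow them, each taken from its brightest probe alone. These correlations share the arrays and their scaling and are given as a description.

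The mice of a group differed from each other across most of the genes. Over the 29 genes, the median deviation from the sham mean was -0.09, -0.18, 0.17, -1.03, 0.97, 0.24 and 0.08 for sham replicates 1 to 7. It was 0.87, 1.14, -0.23, 1.35 and 0.78 at 2 Gy, and 0.21, 1.29, 0.99, 1.05, 1.11 and 1.42 at 8 Gy. At 8 Gy, replicate 1 was the lowest array for 25 of the 29 genes. Without 0 Gy replicate 5, 22 of the 29 genes rose at 8 Gy, where 15.5% of all genes tested rose, and the median was 1.25 (2.38-fold). All 10 adhesion receptors were among the 22. With that array left out and the slide as a block together, 0 passed at 8 Gy, the median was 0.82, and 7 had an unadjusted p under 0.05, where 0.0452% and 11.2% of all genes tested did. Without 8 Gy replicate 1, 20 of the 29 rose at 8 Gy (13.1% of all genes tested), with a median of 1.19. Leaving out 2 Gy replicate 3, which enters this comparison through the shared estimate of the spread and the kit term, gave 15 called genes, where 10.8% of all genes tested rose. Leaving out 0 Gy replicate 4 ended all 9 calls, as did leaving out any 1 of 8 other arrays: 0 Gy replicates 1 and 2, 2 Gy replicate 5 and 8 Gy replicates 2 to 6. In these fits 164 to 394 of all genes tested rose. With 0 Gy replicates 4 and 5 and 2 Gy replicate 3 all left out, a choice made after the data had been seen, 23 rose at 8 Gy and 22 at 2 Gy, where 15.0% and 11.4% of all genes tested rose.

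The rise is one relative to the other transcripts on each array. The 75th percentile of the processed signal was 138 to 425 units at 0 Gy, 46.4 to 186 at 2 Gy and 58.4 to 232 at 8 Gy, with means of 249, 134 and 132, so the irradiated arrays were on average dimmer. Without any scaling between arrays, a choice made after the data had been seen, the median of the 29 at 8 Gy over 0 Gy was 0.00, with 15 of 29 above 0 and 0 passing (0.0753% of all genes tested), while the median of all genes tested was -0.95. At 2 Gy the unscaled medians were -0.11 for the 29 and -0.87 for all genes tested. The scaling moves all genes of an array alike, so the gap between the median of the 29 and that of all genes tested was 0.95 at 8 Gy both with and without it. Quantile normalization gave a median of 0.51, against -0.02 over all genes tested, and 0 of the 29 passed (smallest adjusted p = 0.0577), where 3.78% of all genes tested rose. At an unadjusted p under 0.05, 8 were higher, where 14.4% of all genes tested were. With the brightness of the array as a covariate, the median was 0.70 and 0 passed, as for all genes tested (0.00%). In that fit 6 had an unadjusted p under 0.05, where 9.11% of all genes tested were higher. Without the kit term 15 rose, where 8.48% of all genes tested rose. With probes above background on all arrays 16 of the 28 genes left rose, where 13.6% of all genes tested rose.

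**Figure D5:**
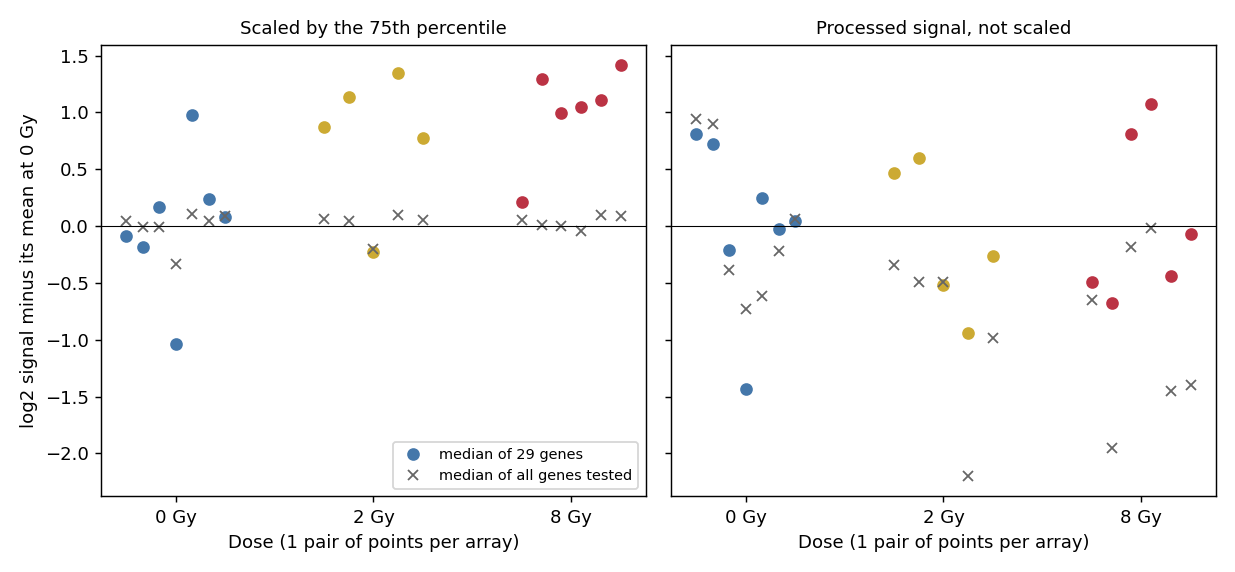
Median over the 29 genes (coloured circles) and over all genes tested (grey crosses) on each array, as log2 deviation from the mean of the sham arrays, with the 75th percentile scaling (left) and without scaling (right). With scaling the circles have group means of 0.02, 0.78 and 1.01 at 0, 2 and 8 Gy, and the crosses lie between -0.33 and 0.11. Among the 29 genes no difference between 8 Gy and 2 Gy was detected. Without it the circles have group means of 0.02, -0.13 and 0.03 at 0, 2 and 8 Gy, and the crosses of -0.01, -0.90 and -0.94.

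Other genes known from platelets were counted in 4 further lists at 8 Gy, where 7.63% of all genes tested rose and 4.31% fell. Of 18 other receptors tested, 5 rose and 0 fell, with a median of 0.93. They included P2ry1, an ADP receptor (1.35 ± 0.31, adjusted p = 0.0199), F11r, Fcer1g and Itga6. Of 18 other granule, coagulation and lipid mediator genes, 3 rose (median 0.82). These were Srgn, the granule proteoglycan serglycin (1.25 ± 0.33, adjusted p = 0.0318), Pdgfa, a growth factor (1.37 ± 0.38, adjusted p = 0.0352), and Ptgs1, the cyclooxygenase that aspirin blocks (0.94 ± 0.30, adjusted p = 0.0489). Of 24 other cytoskeletal and signalling genes, 4 rose (median 0.81): Zyx (1.07 ± 0.32) and Myh9 (0.92 ± 0.28), with adjusted p of 0.0422 and 0.0439, Myl9 and Tln1. Of 11 other megakaryocyte transcription factors, 2 rose (median 0.48), Tal1 (1.17 ± 0.35, adjusted p = 0.0429) and Nfe2 (1.14 ± 0.34, adjusted p = 0.0440). Mef2c of the same list had an estimate below 0 that did not pass (-0.91 ± 0.33, adjusted p = 0.0706). With the slide as a fixed block, 0 members of these lists passed, and the medians were 0.52, 0.49, 0.39 and 0.38 in the same order.

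Markers of other blood cells moved in the same comparison, in which 7.63% of all genes tested rose and 4.31% fell. All 11 neutrophil markers tested rose (median 2.40), and 11 of 12 B cell markers fell (median -3.24). With the slide as a fixed block, 0 of either list passed, as for all genes tested, with medians of 1.91 and -3.09. Of 12 T cell markers 2 fell (median -0.35), of 9 monocyte markers 0 passed (median 0.03), and of 5 fibroblast markers 0 passed (median -0.40). Of 13 erythroid markers, 0 passed, but all 13 were above 0, with a median of 0.85. Their mean deviation from the sham mean lay between -0.82 and 1.01 in the sham mice and between 0.10 and 1.44 at 8 Gy. For the 29 genes the same measure lay between -0.93 and 0.88 and between 0.21 and 1.29. With the slide as a block the erythroid median was 0.97, and with quantile normalization it was 0.19. Blood was drawn through the heart, and of 9 heart muscle markers past the filter 1 rose (Myl3, 1.27 ± 0.38, adjusted p = 0.0429), with a median of 0.73, while Myh6, Ryr2 and Pln did not reach the detection filter. The heart muscle list lay between -0.63 and 1.18 in the sham mice and between -0.24 and 1.10 at 8 Gy. The part of these cell types in the values of the 29 genes, and of the further platelet lists above, was not tested.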

How the data were processed

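The submitters' processing notes name Agilent Feature Extraction 9.5.3.1 and limma. The scanner files hold the processed signal, an intensity already corrected for background per the file headers. The deposited table of the series is also an intensity, and it served as an alternative after a log2 transformation. Here the log2 of the processed signal, as the mean of a probe's spots, was set against the array's 75th percentile. Spots marked as outliers were left out (45 probe values). A probe had to be well above background on 5 or more of the 18 arrays, and the brightest such probe stood for its gene. The name of a probe came from its RefSeq accession or its symbol, current or older. Of 20255 named genes, 13275 were tested.

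With limma 3.58.1 (R 4.3.3), dose and kit were modelled over the 18 arrays together, and p was adjusted over all genes tested by the Benjamini-Hochberg method. Tests were 2-sided. The threshold was an adjusted p of 0.05, and no p was adjusted over the list alone. The number of arrays limits the precision. The slide (taken from the file headers), the scan day, the replicate number, the scaling, the background correction, the filter on dim probes and single arrays were varied as alternatives.

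All 30 listed genes are named whatever their result. From every other list, the genes named are the 2 with the smallest p at 8 Gy where the text turns on the list; 1 gene that this rule names is not reported here. Ptgs1, F11r, Fcer1g, Itga6, Myl9 and Tln1 fall outside this rule: they complete counts of 5 or fewer and were picked once their values were known. Mef2c falls outside it as well and was picked because its estimate went the other way. Vwf, Clu, Itgb3, Cd9, Gfi1b, Rgs18 and Gng11 have full values because they passed. Apart from the set of 30 genes itself, each list was chosen with earlier results of these data known. The files give probe positions on mm7.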

Additional observations from a re-analysis of the deposited data

Results flagged for a closer look

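Dixon's criterion for a single far value was applied to the 29 genes in the 3 dose groups, 87 groups in all, and 12 values from 4 arrays stood out. Chance gives about 1 in 20 for a single group, but the genes vary together, so the 87 are not separate trials. In 7 of these 12 the array was 2 Gy replicate 3, which was the lowest of its group, with log2 values of 3.67 for Gp1bb, 3.35 for Gp6, 7.55 for Treml1, 6.41 for Alox12, 3.48 for Fli1, 5.38 for Rgs18 and 5.60 for Plek. In 3 it was 8 Gy replicate 1, again the lowest, at 7.93 for Itgb3, 3.70 for Gp6 and 7.99 for Treml1. The last 2 were high values at 0 Gy. Replicate 3 had -1.13 for F2rl3, the gene above background on 6 arrays, and replicate 4 had 8.20 for Plek.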

How the results depend on the processing

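At 8 Gy against 0 Gy, 36 alternatives were tried. The median of the 29 genes was not below 0 in any, and 0 genes fell in any, but 20 of the 36 left 0 of the 29 called. Against 9 called and a median of 1.03, the count was 0 with quantile normalization (median 0.51), the deposited table (0.50), no filter on dim probes, the slide as a fixed block (0.51) or a random block, scan day as a block, RiboPure arrays alone, array brightness as a covariate, no scaling (0.0013), and the slide as a block without 0 Gy replicate 5. Of all genes tested, 502 rose with quantile normalization, 494 with the deposited table, 316 with the random block and 157 with RiboPure arrays alone. With no filter on dim probes 360 of 20255 rose, and 0 to 10 rose in the other settings just named. The count among the 29 was 1 with normexp background correction (median 0.44), where 913 of 13275 rose. It was also 1 with 99th percentile scaling (0.50), where 335 rose. It was 15 without the kit term (8.48% of all genes tested), 16 with probes above background on all arrays (13.6%), and 23 without the 3 arrays that stood apart (15.0%). Leaving out 1 array at a time gave 0 to 22 genes and medians of 0.81 to 1.25: 22 without 0 Gy replicate 5, 20 without 8 Gy replicate 1, 15 without 2 Gy replicate 3, 12 without 2 Gy replicate 4, 3 without 0 Gy replicate 6 or 2 Gy replicate 2, 2 without 2 Gy replicate 1, 1 without 0 Gy replicate 3 or 7, and 0 without each of the other 9. Of all genes tested, 2056, 1733, 1433, 1208, 639, 766, 600, 606 and 537 rose in the same order, and 164 to 394 without each of the other 9. Rgs18 was called in 15 of the 36, Gng11 in 12 and Pf4 in 11. Clu, a called gene, turned to -0.038 without scaling.

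At 2 Gy against 0 Gy, 0 were called, except for 7 without 0 Gy replicate 5 and 22 without the 3 arrays. Leaving out single arrays gave 0 to 7 genes and medians of 0.62 to 1.05, and no scaling gave -0.11. Between 8 Gy and 2 Gy the median moved from 0.22 to -0.30 with the slide as a block and 0 Gy replicate 5 left out, and over single arrays from -0.06 to 0.39. Between the kits it ran from 0.06 to 0.29 over single arrays. The cause of these shifts was not tested.

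Replicate numbers did not pair the arrays: of 16 pairs of arrays with the same number, 8 had correlated deviations above 0.1 (-0.35 to 0.48), and 2 of 18 arrays correlated best with their own number. With the replicate number as a block, 0 of the 29 passed at 8 Gy (median 0.91), and the median between kits was -0.42.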
